A study of Mus musculus with 8 samples.

Results

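Messenger RNA of 10 genes of lipoprotein assembly was followed in mouse primary hepatocytes with and without transglutaminase 2: the apolipoproteins Apoa1, Apoa2, Apoa4, Apoa5, Apob, Apoc1, Apoc3, Apoe and Apom, and the transfer protein Mttp. The genes were chosen by symbol, and every array probe set whose platform symbol was exactly 1 of these names was taken. That gave 17 of the 45037 non-control probe sets: 4 for Apoa1, a pair each for Apoa4, Apob, Apom and Mttp, and 1 for each other gene. Of these, 16 had a usable value on all 8 arrays, and all 16 passed the filter on dim probe sets. The other, Apob 1457554_at, lacked a value on 1 array.

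The cells came from wild-type (WT) mice or from mice without transglutaminase 2 (TG2KO, here KO), an enzyme encoded by Tgm2 that crosslinks proteins, on a C57BL6/129SVJ background in both genotypes. They were incubated for 15 h with 0 or 100 mM ethanol, and each of the 4 groups (untreated WT, ethanol WT, untreated KO, ethanol KO) has 2 arrays, A and B. The series title places the work in liver injury and the crosslinking of the transcription factor Sp1. The labels name neither the animals' age, nor how the knockout allele was made, nor whether A and B came from separate animals or cultures, so the p-values speak only to the spread between 2 arrays, which may be technical.

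Hepatocytes build very low density lipoprotein around 1 molecule of apolipoprotein B, which Mttp loads with lipid as it enters the endoplasmic reticulum. Apolipoproteins A-I and A-II are the main proteins of high density lipoprotein, and the small C apolipoproteins, apolipoprotein E and apolipoprotein A-V move between particles in plasma. They decide how fast lipases act on the particles and which receptors take them up.

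The arrays differed in ways that touch these genes. Trimmed mean intensity was 113.3 to 117.5 on both untreated KO arrays and ethanol KO A, and 228 to 341.5 on the other 5. The bioC to bioB spike-in ratio was 0.937 to 1.06 on array A of every group but untreated KO, and 2.59 to 3.14 on the other 5. For the Pcx control, the 3′ to 5′ signal ratio was highest on the ethanol WT arrays (A 26.7, B 44.5). Ethanol KO arrays had the lowest (A 4.91, B 5.45). Between them lay untreated WT (A 10, B 16.8) and untreated KO (A 10.6, B 8.69). Whether this ratio shaped the group differences was not tested. The labels of array B disagree with themselves in the ethanol groups, where the treatment text describes a control incubation but the title says 100 mM. Titles were used here, and values are also given without these arrays and with them counted as untreated. On ethanol WT B, 12% of all values were unusable, and 3 of the 17 probe sets lie in that stretch of the table. Tgm2, the deleted gene, averaged 3.09% of its WT level in KO cells and was lower on all 4 KO arrays (368 to 704) than on the WT arrays (16700 to 16800). Hepatocyte markers were at a summed normalised intensity of 123400 to 128200 on all 8 arrays, with 14 of 18 markers measured. That sum is mostly bright genes such as Alb, Ttr and Hpx, which quantile normalisation holds within a narrow range. Single markers differed: 8 of the 14 were called in untreated KO against WT cells, 3 higher and 5 lower (57.1%, against 32.3% of all tested probe sets). With each array scaled by its trimmed mean instead, 9 were called higher and 4 lower, where 6736 of 19814 tested probe sets were called. Ahsg read 10500 and 10200 in WT cells and 4260 and 3950 in KO cells, and Cyp2e1 read 9820 and 10100 against 14500 and 15700. Correlations across probe sets were 0.971 to 0.983 within groups and 0.95 to 0.982 between groups, so the ranges overlap.

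Promoters are printed for the 4 genes whose probe sets lay below the top of the intensity range and were called in at least 1 comparison, so that the genes that rose and fell in KO cells can be set beside each other. Each run is 300 bases around the RefSeq transcription start of build GRCm38.p6, 5′ to 3′ on the gene's own strand. Capitals mark matches to any of 4 motifs, searched on both strands: GGGCGG, the GC box that Sp1 binds, CAAAGTCCA, a core of Hnf4a elements, GGGTCA, a variant of the nuclear receptor half-site, and TATAAA, the TATA box. The last pair of motifs was chosen after these sequences had been read. No 2 of the matches overlap.
Apoa5, chr9:46268358-46268657, plus strand: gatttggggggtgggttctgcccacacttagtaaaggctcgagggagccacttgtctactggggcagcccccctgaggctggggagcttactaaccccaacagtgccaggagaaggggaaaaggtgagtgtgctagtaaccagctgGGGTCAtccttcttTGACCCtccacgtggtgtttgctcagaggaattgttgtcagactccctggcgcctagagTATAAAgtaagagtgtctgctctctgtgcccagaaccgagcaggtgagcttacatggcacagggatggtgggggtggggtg
Apom, chr17:35131752-35132051, minus strand: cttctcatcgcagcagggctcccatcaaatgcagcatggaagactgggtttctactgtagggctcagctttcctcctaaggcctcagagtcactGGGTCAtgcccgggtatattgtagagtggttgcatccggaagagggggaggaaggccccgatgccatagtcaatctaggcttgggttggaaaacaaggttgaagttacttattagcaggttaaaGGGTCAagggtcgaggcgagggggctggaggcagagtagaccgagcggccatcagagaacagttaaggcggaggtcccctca
Mttp, chr3:138143369-138143668, minus strand: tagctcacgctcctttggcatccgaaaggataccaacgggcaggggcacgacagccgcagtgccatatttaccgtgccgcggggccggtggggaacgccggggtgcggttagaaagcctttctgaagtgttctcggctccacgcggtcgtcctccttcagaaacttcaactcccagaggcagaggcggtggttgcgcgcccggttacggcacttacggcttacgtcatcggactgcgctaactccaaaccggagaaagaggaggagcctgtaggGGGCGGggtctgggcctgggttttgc
Apob, chr12:7977427-7977726, plus strand: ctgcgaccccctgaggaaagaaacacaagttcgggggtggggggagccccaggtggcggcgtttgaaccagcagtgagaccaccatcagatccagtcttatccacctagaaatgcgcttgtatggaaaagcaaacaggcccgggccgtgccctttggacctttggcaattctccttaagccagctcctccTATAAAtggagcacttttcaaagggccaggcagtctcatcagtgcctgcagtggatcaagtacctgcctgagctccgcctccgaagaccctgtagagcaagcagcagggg
The Apoa5 window holds GGGTCA at -104 and its reverse complement TGACCC at -90, counted at the leftmost base from the start, and TATAAA at -31. The Apom window holds GGGTCA at -156 and -32. The Mttp window has the GC box, at 25 bases into the transcript, and the Apob window has TATAAA at -60. Of 27025 mouse promoters of the same length, 35.9% hold GGGCGG, 14.2% TATAAA, 13.5% GGGTCA and 0.477% CAAAGTCCA. The last was in none of the 8 windows found for the 10 genes. Among the other windows, Apoa2 had TATAAA at -212 and Apoe had GGGTCA at -28. These matches describe letters in the windows and say nothing of binding.

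Apoa5, the apolipoprotein that raises lipoprotein lipase activity on triglyceride-rich particles, rose with ethanol in both genotypes and was lower in KO cells with and without it. Its differences were the largest of the 16 complete probe sets in every comparison except KO against WT with ethanol, where Apom 1419095_a_at was further from 0. Its normalised intensity was 2830 and 2860 in WT cells (A and B), 5560 and 5480 in WT cells with ethanol, 540 and 568 in KO cells, and 1920 and 2070 in KO cells with ethanol. The 4 groups did not overlap, in the order ethanol WT, untreated WT, ethanol KO, untreated KO, and the KO cells with ethanol stayed below the WT cells without it. In bulk RNA, fewer cells of a type and less RNA per cell cannot be told apart.

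With ethanol, Apoa5 rose by 0.95 ± 0.072 (log2 difference ± SE, 1.93-fold) in WT cells, at an adjusted p of 0.00022 in the limma fit over all tested probe sets. In KO cells it rose by 1.82 ± 0.072 (3.53-fold, adjusted p = 5.9e-06). The rise was larger in KO than in WT cells by 0.87 ± 0.1 (interaction, adjusted p = 0.0031). KO cells had 5.02-fold less Apoa5 than WT cells without ethanol (-2.33 ± 0.072, adjusted p = 6.8e-08) and 2.76-fold less with it (-1.46 ± 0.072, adjusted p = 1.6e-06).

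The A arrays alone and the B arrays alone gave nearly equal Apoa5 differences: 0.97 and 0.93 for ethanol in WT, 1.8 and 1.83 for ethanol in KO, and -2.36 and -2.3 for KO against WT untreated. Its rank among probe sets, which no scaling of a whole array can change, went from 1084 and 1099 in untreated WT to 483 and 495 in ethanol WT. In KO cells the rank went from 5145 and 4957 to 1663 and 1545. Without the ethanol B arrays the rises were 0.96 in WT and 1.77 in KO, and the interaction was 0.80 (adjusted p = 0.0054). Counting those arrays as untreated ended every Apoa5 call but KO against WT untreated: the ethanol differences became 0.65 (adjusted p = 1) and 1.14 (adjusted p = 0.3), and the interaction 0.49 (adjusted p = 0.85). The interaction call was also lost with a variance prior that ignores intensity (adjusted p = 0.067).

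**Figure D1:**
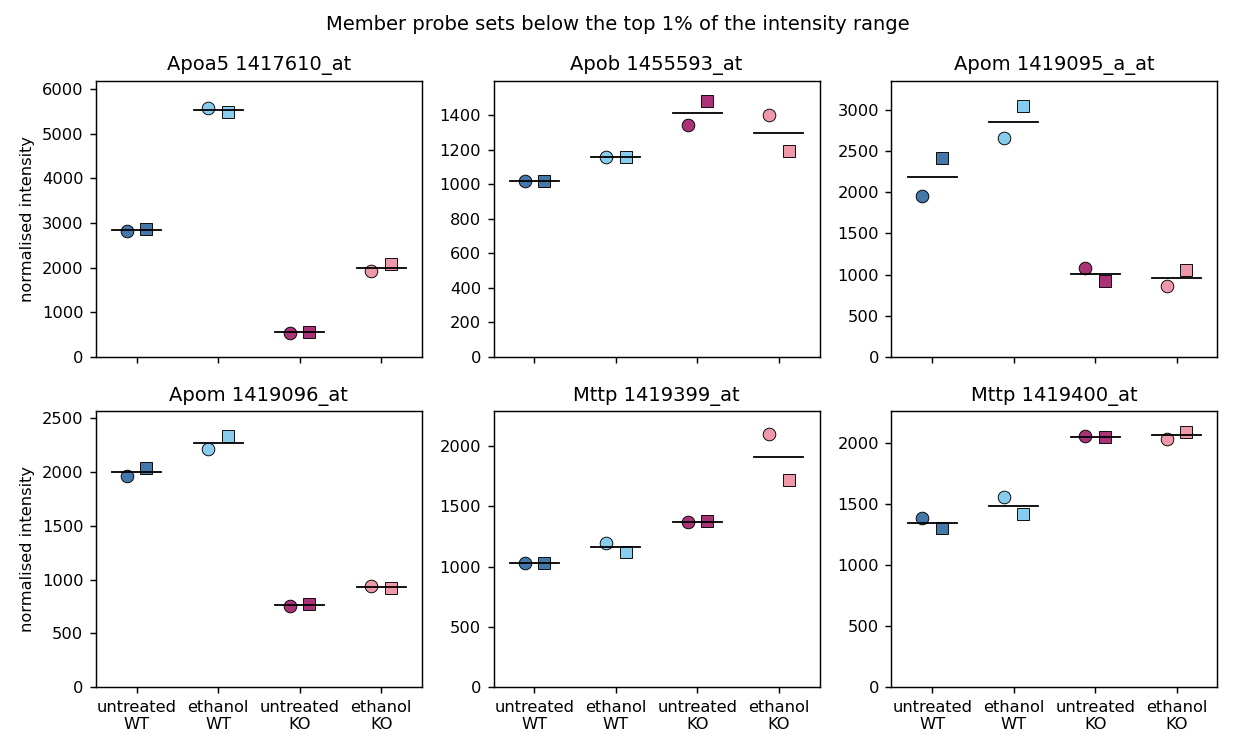
Normalised intensity (linear axis from 0) of the 6 probe sets below the top 1% of the intensity range, by group, with A arrays as circles, B arrays as squares and group means as bars. Apoa5 separates all 4 groups, both Apom probe sets are lower in KO than in WT cells, and both Mttp probe sets and Apob are higher.

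Apom encodes apolipoprotein M, a minor protein of high density lipoprotein that carries sphingosine 1-phosphate. Both of its probe sets were lower in KO than in WT cells, with and without ethanol. Probe set 1419096_at read 1960 and 2030 in WT cells, 2210 and 2330 in WT cells with ethanol, 757 and 771 in KO cells, and 944 and 925 in KO cells with ethanol. Probe set 1419095_a_at read 1950 and 2410, 2660 and 3040, 1080 and 922, and 856 and 1060 in the same order. No KO array reached the lowest WT array on either probe set.

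Without ethanol, Apom was lower in KO cells at -1.37 ± 0.075 (2.58-fold, adjusted p = 2.9e-06) on 1419096_at and -1.11 ± 0.14 (2.15-fold, adjusted p = 0.00036) on 1419095_a_at. With ethanol the differences were -1.27 ± 0.075 (adjusted p = 4.3e-06) and -1.56 ± 0.14 (adjusted p = 5.4e-05). These 4 calls held in every alternative run, with differences of -1.71 to -0.953, and without the ethanol B arrays the ethanol pair was -1.21 and -1.62. The probe sets gave different values for ethanol in KO cells. There 1419096_at rose by 0.29 ± 0.075 (adjusted p = 0.025), while 1419095_a_at gave -0.064 ± 0.14 (adjusted p = 0.78). In WT cells neither was called (0.19 and 0.39, adjusted p = 0.21 and 0.16). The 1419096_at rise was lost under 7 of 20 alternatives, among them leaving out untreated KO A (0.27, adjusted p = 0.13) or B (0.30, adjusted p = 0.1) and trimmed-mean scaling (0.26, adjusted p = 0.058).

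Mttp, which encodes the microsomal transfer protein that loads apolipoprotein B with lipid, was higher in KO than in WT cells on both probe sets. Probe set 1419400_at read 1390 and 1310 in WT cells, 1560 and 1420 in WT cells with ethanol, 2060 and 2050 in KO cells, and 2040 and 2090 in KO cells with ethanol. Probe set 1419399_at read 1030 and 1030, 1200 and 1120, 1370 and 1380, and 2100 and 1720 in that order. Every KO array was above every WT array on both.

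Mttp 1419400_at rose in KO cells by 0.60 ± 0.077 without ethanol (1.51-fold, adjusted p = 0.00041) and by 0.47 ± 0.077 with it (1.38-fold, adjusted p = 0.0019). The differences on 1419399_at were 0.41 ± 0.1 (adjusted p = 0.012) and 0.70 ± 0.1 (adjusted p = 8e-04). Leaving out any 1 of the 4 untreated arrays ended the untreated call on 1419399_at (0.40 to 0.41, adjusted p = 0.062 to 0.071), while the 1419400_at call held without each of them. Without the ethanol B arrays, the pair with ethanol was 0.38 (adjusted p = 0.016) and 0.80 (adjusted p = 0.00085). Counted as untreated, those arrays ended both calls (adjusted p = 0.18 and 0.055). For ethanol in KO cells the probe sets gave 0.47 ± 0.1 (adjusted p = 0.011) on 1419399_at and 0.0071 ± 0.077 (adjusted p = 0.96) on 1419400_at. The first was lost without untreated KO A (0.46, adjusted p = 0.073) or B (0.47, adjusted p = 0.068). In WT cells neither Mttp probe set was called with ethanol (0.14 and 0.17, adjusted p = 0.4 and 0.44).

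Apob, the structural protein of very low density lipoprotein, was higher in KO than in WT cells without ethanol. Probe set 1455593_at read 1020 and 1020 in WT cells, 1160 and 1160 in WT cells with ethanol, 1340 and 1480 in KO cells, and 1400 and 1190 in KO cells with ethanol. The KO arrays lay above the WT arrays in both media. The difference passed the test only without ethanol (0.46 ± 0.096, 1.37-fold, adjusted p = 0.0056, against 0.15 ± 0.096, adjusted p = 0.27 with it), and the change in that difference was not called (-0.31 ± 0.14, adjusted p = 0.22). Without untreated KO B the untreated difference was 0.39 (adjusted p = 0.059), and with the ethanol B arrays counted as untreated 0.32 (adjusted p = 0.084).

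The dimmer Apob probe set, 1457554_at, read 183 and 121 in WT cells, 144 on array A of WT cells with ethanol, 212 and 206 in KO cells, and 402 and 374 in KO cells with ethanol. Its ethanol WT B value was unusable and entered the fit as missing. In that fit it rose with ethanol in KO cells by 0.85 ± 0.2 (adjusted p = 0.021) and was 1.33 ± 0.25 higher in KO than in WT cells with ethanol (adjusted p = 0.0037). The brighter probe set was called in neither comparison (ethanol in KO -0.12 ± 0.096, adjusted p = 0.39), so the pair disagreed on the ethanol response of KO cells.

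The other 10 probe sets, of Apoa1, Apoa2, Apoa4, Apoc1, Apoc3 and Apoe, lie near the top of the intensity range, set here as the highest 1% of mean intensity (396 of 39627 complete probe sets). Quantile normalisation gives every array the same list of values. Rank 1 is worth 18000 on each array, rank 100 is worth 11600 and rank 396 is worth 6400, so a probe set among the first 100 cannot move by more than the ratio of those values without leaving them. The faintest probe set inside the limit was Apoa4 1417761_at, at rank 343, and the brightest outside was Apoa5, at rank 1517. Among the 396, the median absolute log2 difference between untreated KO and WT was 0.147, against 0.355 over all tested probe sets.

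Apoa1, which encodes the main protein of high density lipoprotein, held the first rank of the array in WT cells with ethanol. Probe set 1419232_a_at read 15900 and 17200 in WT cells, 18000 and 18000 in WT cells with ethanol, 12500 and 12800 in KO cells, and 13400 and 15200 in KO cells with ethanol. Its ranks were 10 and 3, 1 and 1, 73 and 67, and 53 and 17, with all KO arrays below all WT arrays. The other 3 Apoa1 probe sets carry the x_at suffix, which the array maker gives to probe sets that may cross-hybridise with other transcripts.

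In untreated KO cells all 4 Apoa1 probe sets were called lower, with a log2 difference of -0.39 ± 0.072 on 1419232_a_at (adjusted p = 0.0031) and of -0.402 to -0.225 on the others. With each array scaled by its trimmed mean instead, all 4 differences turned positive, from 0.34 (adjusted p = 0.23) to 0.56 (adjusted p = 0.055), and that of 1419232_a_at was 0.37 (adjusted p = 0.048). With ethanol, 1419232_a_at gave a KO against WT difference of -0.34 ± 0.072 (adjusted p = 0.0073) after quantile normalisation, -0.12 (adjusted p = 0.51) after trimmed-mean scaling and -0.43 (adjusted p = 0.002) without the ethanol B arrays. Its rank, which neither scaling alters, was lower on the KO arrays in both media. The deposited values were 15400 and 20000 in untreated WT against 9360 and 10300 in untreated KO. These are not corrected for array brightness: the trimmed means were 228 and 307.1 against 113.3 and 117. Ethanol raised 1438840_x_at in KO cells by 0.31 ± 0.06 (adjusted p = 0.0074), and the other 3 were not called. After trimmed-mean scaling the 1438840_x_at difference was -0.18 (adjusted p = 0.54). The values so scaled were 16500 and 16800 in untreated KO, and 19100 (A) and 11300 (B) in ethanol KO, so A rose and B fell.

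Apoc1, a small apolipoprotein that inhibits lipoprotein uptake, was the only other gene of the bright set with a call after quantile normalisation. It read 12100 and 12000 in WT cells, 12900 and 12000 in WT cells with ethanol, 11200 and 11100 in KO cells, and 13800 and 12800 in KO cells with ethanol. The KO groups did not overlap each other. Scaled by trimmed mean instead, Apoc1 read 16200 and 16200 in untreated KO, and 17300 (A) and 11000 (B) in ethanol KO, so A rose and B fell. The rise with ethanol in KO cells was 0.26 ± 0.062 (1.19-fold, adjusted p = 0.019). It was lost without untreated KO A (0.26, adjusted p = 0.11) or B (0.25, adjusted p = 0.13), and became -0.23 (adjusted p = 0.37) after trimmed-mean scaling.

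Apoa2, Apoa4, Apoc3 and Apoe had no call in any comparison after quantile normalisation. Apoa2, the second protein of high density lipoprotein, read 16500 and 16100 in WT cells, 15800 and 16700 in WT cells with ethanol, 16500 and 16700 in KO cells, and 17700 and 13700 in KO cells with ethanol. Its ranks were between 2 and 11 on 7 arrays and 44 on ethanol KO B. Apoe, the ligand by which remnants bind their receptors, read 13800 and 14200, 13800 and 14200, 14800 and 14800, and 15500 and 13300 in that order. Apoc3, an inhibitor of lipoprotein lipase and remnant uptake, read 12600 and 12300, 12300 and 13200, 12300 and 12400, and 13300 and 12200. The spread between the ethanol KO arrays was the widest of the 4 groups for Apoa2, Apoe and Apoc3.

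Apoa4, a protein of intestinal and hepatic particles, read 6510 and 6350, 6820 and 6890, 7290 and 7100, and 7220 and 7330 on 1417761_at. On 1436504_x_at it read 8260 and 7510, 8520 and 8580, 7780 and 7750, and 9820 and 7740. Between untreated KO and WT the differences of these uncalled probe sets ran from -0.020 (Apoa4 1436504_x_at) to 0.16 ± 0.057 (Apoa4 1417761_at, adjusted p = 0.057). After trimmed-mean scaling, 5 genes of the bright set that were uncalled in untreated KO against WT passed the test there as higher. They were Apoa2 (0.94, adjusted p = 0.032), Apoe (0.91, adjusted p = 0.012), Apoc3 (0.69, adjusted p = 0.014), Apoa4 on 1417761_at (0.53, adjusted p = 0.0014) and Apoc1 (0.55, adjusted p = 0.039). Under that scaling 74.2% of the 396 brightest probe sets were called in this comparison, against 36.1% after quantile normalisation.

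**Figure D2:**
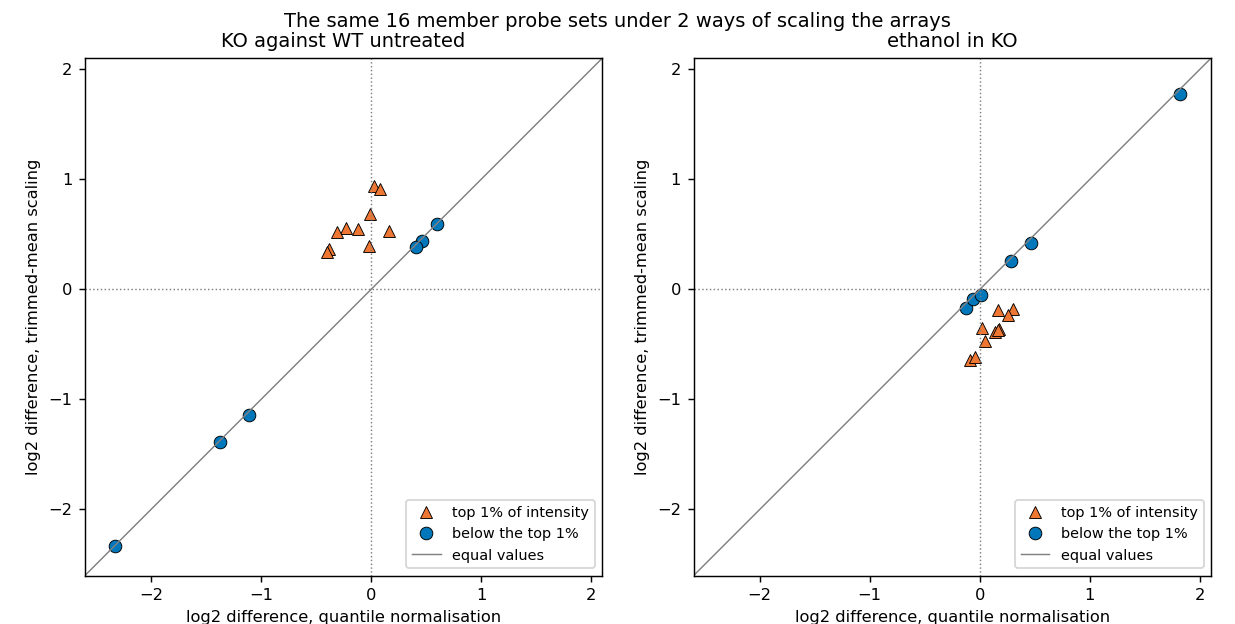
Log2 differences of the 16 complete probe sets after quantile normalisation (horizontal) and trimmed-mean scaling (vertical), for KO against WT untreated and for ethanol in KO, with the 10 probe sets in the top 1% as triangles, the other 6 as circles, and a line of equal values. The circles follow the line, while every triangle lies above it on the left and below it on the right.

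The shift is shared by bright probe sets in general. Over the 396 brightest, the median difference between untreated KO and WT was -0.00864 after quantile normalisation and 0.529 after trimmed-mean scaling, and for ethanol in KO it was -0.0042 and -0.463. The median of all tested probe sets moved by over 0.1 in 1 comparison, KO against WT with ethanol (-0.0466 to 0.0641). The 3 dim arrays are all KO arrays, so in untreated cells brightness and genotype cannot be told apart. Ethanol KO A was among them (trimmed mean 117.5), while ethanol KO B was not (341.5). The 6 probe sets of Apoa5, Apob, Apom and Mttp kept their directions wherever they were called under both scalings, for example -2.33 under both for Apoa5 in untreated KO. Without the dim arrays, KO against WT with ethanol was -1.41 for Apoa5, -1.28 for Apom 1419096_at and 0.49 for Mttp 1419400_at. It was -0.245 for the bright Apoa1 1419232_a_at. These values come from quantile normalisation and from 1 KO array.

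**Figure D3:**
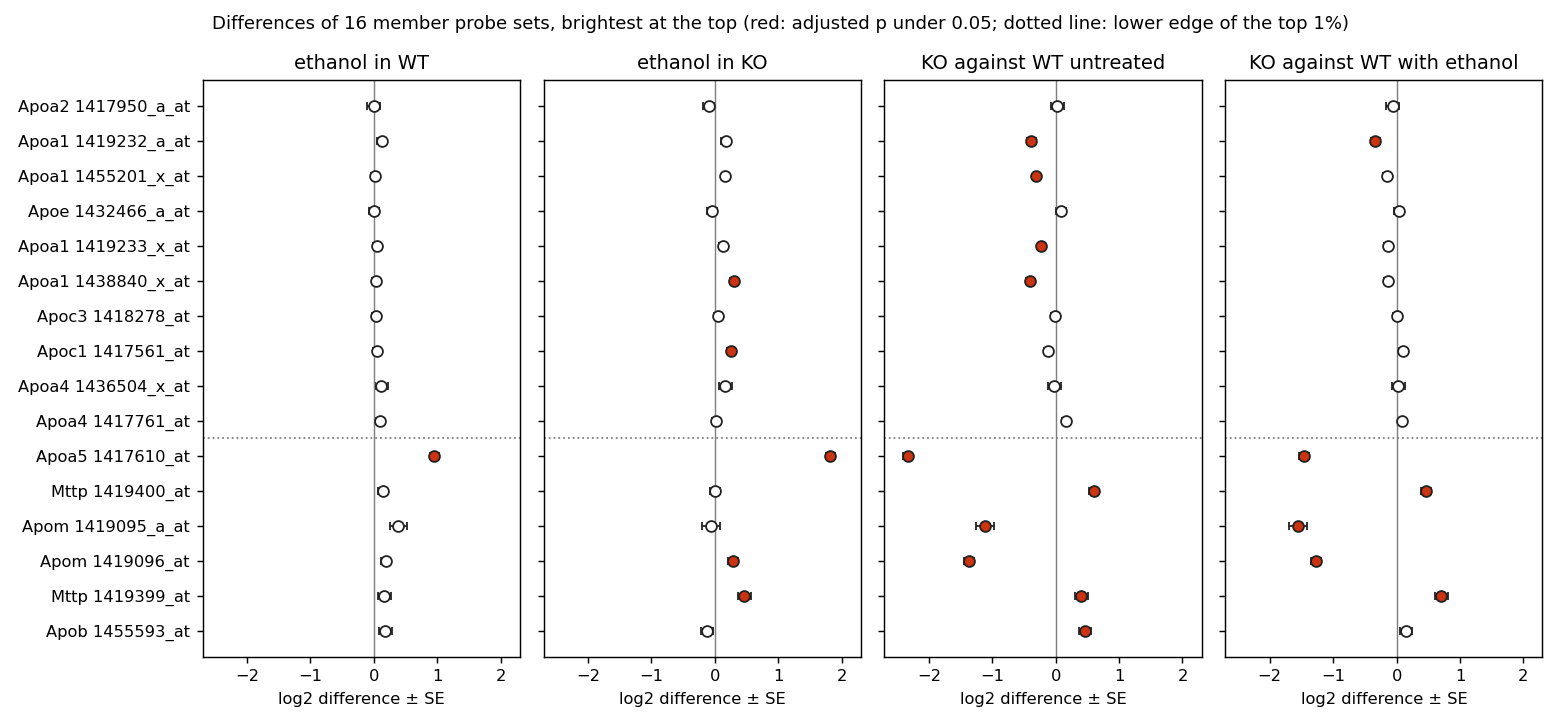
Log2 differences with model SE of the 16 probe sets in 4 comparisons, ordered by mean intensity with the brightest at the top and a dotted line at the lower edge of the top 1%. Filled points passed an adjusted p of 0.05, and the widest differences lie below the line.

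Counted over the 16 complete probe sets, ethanol in WT cells changed 1 (Apoa5, higher), where 5.58% of the 19814 tested probe sets were called, 1.67% higher and 3.91% lower. Their median difference was 0.105 against 0.0138 over all. Ethanol in KO cells raised 5, of Apoa1, Apoa5, Apoc1, Apom and Mttp, and lowered none that passed the test, where 22.2% of all were called, 11.4% higher and 10.8% lower. That median was 0.15 against -0.00537, and the differences of Apoa1 and Apoc1 turned negative with trimmed-mean scaling. For the called Apoa1 probe set and Apoc1, the value so scaled rose on ethanol KO A and fell on B. That scaling gave 2 higher and 1 lower (Apoa4 1417761_at, -0.35, adjusted p = 0.018), with a median of -0.21, where 4690 of all 19814 were called.

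In untreated KO against WT cells, 3 of the 16 were higher and 7 lower, where 32.3% of all were called, 15.3% higher and 16.9% lower. Of the 7, 4 are the Apoa1 probe sets whose direction turned with the scaling. Trimmed-mean scaling gave 9 higher and 3 lower, the 3 being Apoa5 and both Apom probe sets, where 6736 of all 19814 were called. Of the 9, 6 were among the brightest 396, of which 74.2% were called under that scaling. With ethanol, 2 were higher in KO (both Mttp) and 4 lower (Apoa1, Apoa5 and both Apom), where 29.1% of all were called, 14% higher and 15.1% lower. Trimmed-mean scaling left 2 higher and 3 lower, where 5833 of all 19814 were called. The interaction called 1 of 16, Apoa5, where 5.35% of all were called, 3.57% higher and 1.78% lower. The pairs of comparisons share arrays, so their counts are not separate evidence.

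Some of these genes are neighbours. In the RefSeq gene table Apoa1, Apoc3, Apoa4 and Apoa5 follow each other on chromosome 9, and Apoe, Apoc1, Apoc4 and Apoc2 on chromosome 7. On chromosome 9, Apoa5 differed 5.02-fold between untreated KO and WT while Apoa1, Apoc3 and Apoa4 moved by -0.402 to 0.162 on the log2 scale, within the narrow range that the top ranks allow. On chromosome 7, Apoe and Apoc1, also among the top ranks, had no genotype call after quantile normalisation. Trimmed-mean scaling called both higher in untreated KO cells (0.91, adjusted p = 0.012, and 0.55, adjusted p = 0.039). It called 74.2% of the 396 brightest probe sets in that comparison. Apoc2, the activator of lipoprotein lipase, was lower in KO cells without ethanol (-1.36 ± 0.069, adjusted p = 1.8e-06) and with it (-1.01 ± 0.069, adjusted p = 1e-05). Apoc4 was also lower after quantile normalisation, without ethanol (-0.32 ± 0.058, adjusted p = 0.0025) and with it (-0.42 ± 0.058, adjusted p = 0.00073).

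Across the 8 arrays, the log2 values of Apoa5 and Apoa1 correlated at 0.93, those of Apom and Apoa1 at 0.93 and those of Apom and Mttp at -0.91, with Pearson's r. These describe 4 groups of a pair each and share the arrays' scaling. Of 10740 other genes, those most like Apoa5 across the 8 arrays were Pagr1a (r = 0.998), Ndufc1 (0.996) and Bola1 (0.996). Most like Apom were Dnajc9 (0.995), Setd7 (0.995) and Ntpcr (0.991). For Mttp they were Ces2e (0.993), Mt2 (0.991) and Gnai1 (0.991), and for Apob Rc3h1 (0.984), Wwp1 (0.977) and Adap2 (0.958). Apoa1 was most like Chmp6 (0.990), Txnl1 (0.990) and AI661453 (0.989), and Apoc1 was most like Tinf2 (0.975), Mtor (0.973) and Pbld1 (0.971).

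The remaining genes of lipoprotein metabolism were taken from 5 lists, with 1 probe set a gene. The shares called over all 19814 tested probe sets, given above, were 32.3% for KO against WT untreated, 29.1% for KO against WT with ethanol, 5.58% for ethanol in WT, 22.2% for ethanol in KO and 5.35% for the interaction. Of the other apolipoproteins, 12 of 16 genes were tested, and 4 were lower and 2 higher in untreated KO cells (50% called; median -0.00325, against -0.0354 over all tested probe sets). The 4 were Apoc2, described above, Apon (-1.09 ± 0.082, adjusted p = 2.1e-05), Apof (-0.74 ± 0.061, adjusted p = 3.1e-05) and Apoc4 (-0.32 ± 0.058, adjusted p = 0.0025). The human counterpart of Apof encodes an inhibitor of cholesteryl ester transfer. The Apoc4 difference became -0.13 (adjusted p = 0.27) after trimmed-mean scaling, which gave 5 higher and 3 lower in the list. With ethanol, 5 were lower in KO and none higher (41.7% called), Apoc2, Apon (-0.80 ± 0.082, adjusted p = 0.00013) and Apof (-0.68 ± 0.061, adjusted p = 5.4e-05) among them. Ethanol raised Saa4, a constitutive serum amyloid A of high density lipoprotein, by 0.94 ± 0.1 in WT (adjusted p = 0.0014) and 0.62 ± 0.1 in KO cells (adjusted p = 0.0034), on 1 of 2 probe sets.

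Of the genes of lipoprotein assembly and secretion, 28 of 31 were tested. In untreated KO cells 6 were higher and 3 lower (median 0.0119), and the 32.1% called is at the share over all. With ethanol 10 were higher and 2 lower (42.9% called, median 0.0701). Ces1d, a lipase of the endoplasmic reticulum that releases stored lipid for assembly, had means of 1050 in untreated WT, 1210 in ethanol WT, 4050 in untreated KO and 3430 in ethanol KO. It was higher in KO by 1.93 ± 0.076 without ethanol (adjusted p = 3.2e-07) and by 1.5 ± 0.076 with it (adjusted p = 1.8e-06). Sar1b, the GTPase of the transport vesicles that carry lipoprotein particles, was higher in KO with ethanol by 0.61 ± 0.072 (adjusted p = 0.00027). Tm6sf2, needed for lipidation of very low density lipoprotein, averaged 392, 491, 152 and 379 in the same order. In untreated KO cells it fell by 1.29 ± 0.14 (adjusted p = 0.00016) and with ethanol it rose by 1.24 ± 0.14 in these cells (adjusted p = 7e-04), and its interaction was 0.93 ± 0.2 (adjusted p = 0.03). Pla2g12b, another gene needed for secretion of triglyceride-rich particles, rose with ethanol in WT by 0.48 ± 0.081 (adjusted p = 0.0096) and in KO cells by 0.69 ± 0.081 (adjusted p = 0.00078). Over the list, ethanol raised 3 and lowered 1 gene in WT cells (14.3% called), and raised 8 and lowered 2 in KO cells (35.7% called).

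Of the genes that remodel lipoproteins in plasma, 12 of 14 were tested. In untreated KO cells 3 were higher and 2 lower (41.7% called, median 0.0942). With ethanol 3 were higher and none lower, and the 25% called is below the share over all. Pltp, the phospholipid transfer protein, averaged 408 in untreated WT, 398 in ethanol WT, 1390 in untreated KO and 2310 in ethanol KO. It was higher in KO by 1.73 ± 0.13 without ethanol (adjusted p = 1.8e-05) and by 2.50 ± 0.13 with it (adjusted p = 1.9e-06). Angptl8, a secreted regulator of lipoprotein lipase, averaged 754, 762, 1060 and 2910 in that order. Its rise with ethanol was 1.45 ± 0.15 in KO cells (adjusted p = 0.00053), larger than in WT cells by 1.43 ± 0.21 (interaction, adjusted p = 0.0075). Ethanol in WT cells called no gene of this list or of the receptors in the limma fit, with 0 and 2 genes at an unadjusted p under 0.05.

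Of the lipoprotein receptors, 12 of 15 were tested, and in untreated KO cells 4 were lower and 2 higher (50% called, median -0.175). Lrp1, a receptor for remnants, was lower in KO cells without ethanol (-1.51 ± 0.11, adjusted p = 1.6e-05) and with it (-0.94 ± 0.11, adjusted p = 0.00024), on 1 of 2 probe sets. Scarb1, the receptor for high density lipoprotein, fell by 0.87 ± 0.092 (adjusted p = 0.00014) and rose with ethanol in KO cells by 0.82 ± 0.092 (adjusted p = 0.00068), on 2 of 3 probe sets in both. Cd36, a fatty acid and lipoprotein scavenger receptor, was higher in KO cells, with differences of 1.70 ± 0.17 in untreated and 1.71 ± 0.17 in ethanol-treated cells (adjusted p = 9.2e-05 for each). With ethanol 1 receptor was higher and 2 were lower in KO, and the 25% called is below the share over all.

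Of the regulators of apolipoprotein genes, 25 of 30 were tested. In untreated KO cells 5 were higher and 7 lower (48% called, median -0.136), and with ethanol 3 were higher and 8 lower (44% called). Hnf4a, the nuclear receptor that drives many apolipoprotein genes in liver, averaged 1170 in untreated WT, 1620 in ethanol WT, 448 in untreated KO and 762 in ethanol KO. It was lower in KO cells without ethanol (-1.36 ± 0.098, adjusted p = 1.6e-05), on 3 of 4 probe sets, and with it (-1.08 ± 0.098, adjusted p = 6.1e-05), on 2 of 4 with 1 called the other way. Foxa2, a forkhead factor of hepatocytes, averaged 317, 357, 50.3 and 211 in that order. It fell by 2.33 ± 0.19 in untreated KO (adjusted p = 2.7e-05) and rose with ethanol in KO cells by 1.77 ± 0.19 (adjusted p = 0.00054). Cebpa, Creb3l3 and Foxa3 rose with ethanol in WT cells by 1.05 ± 0.18, 0.63 ± 0.09 and 0.56 ± 0.086 (adjusted p = 0.0095, 0.0045 and 0.006). They were not particular to WT cells. In KO cells Foxa3 rose with ethanol by 0.53 ± 0.086 (adjusted p = 0.0032). The KO means went from 414 to 875 for Cebpa and from 2340 to 3280 for Creb3l3. Creb3l3 is a liver factor known to act on Apoa5. Over the list, ethanol raised 5 and lowered 1 in WT cells (24% called, median 0.329 against 0.0138 over all), and raised 9 and lowered 2 in KO cells (44% called, median 0.421 against -0.00537).

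The remaining counts complete the lists. Ethanol raised 2 other apolipoproteins in WT cells (16.7% called) and 3 in KO cells (25% called, near the 22.2% over all). In KO cells it raised 5 remodelling genes (41.7% called), and raised 4 receptors and lowered 1 (41.7% called). The interaction called 3 assembly genes (2 higher, 1 lower; 10.7%), 3 remodelling genes (25%) and 1 receptor (8.33%), all higher, 3 regulators (2 higher, 1 lower; 12%) and 0 other apolipoproteins, of which 3 had an unadjusted p under 0.05 in limma. Some splits moved with the processing. For ethanol in KO cells, trimmed-mean scaling and leaving out the ethanol B arrays each gave 3 higher and 3 lower among the other apolipoproteins. Without those arrays the assembly list had 11 higher and 6 lower there. In untreated KO against WT cells, trimmed-mean scaling gave 9 higher and 3 lower in the assembly list.

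**Figure D4:**
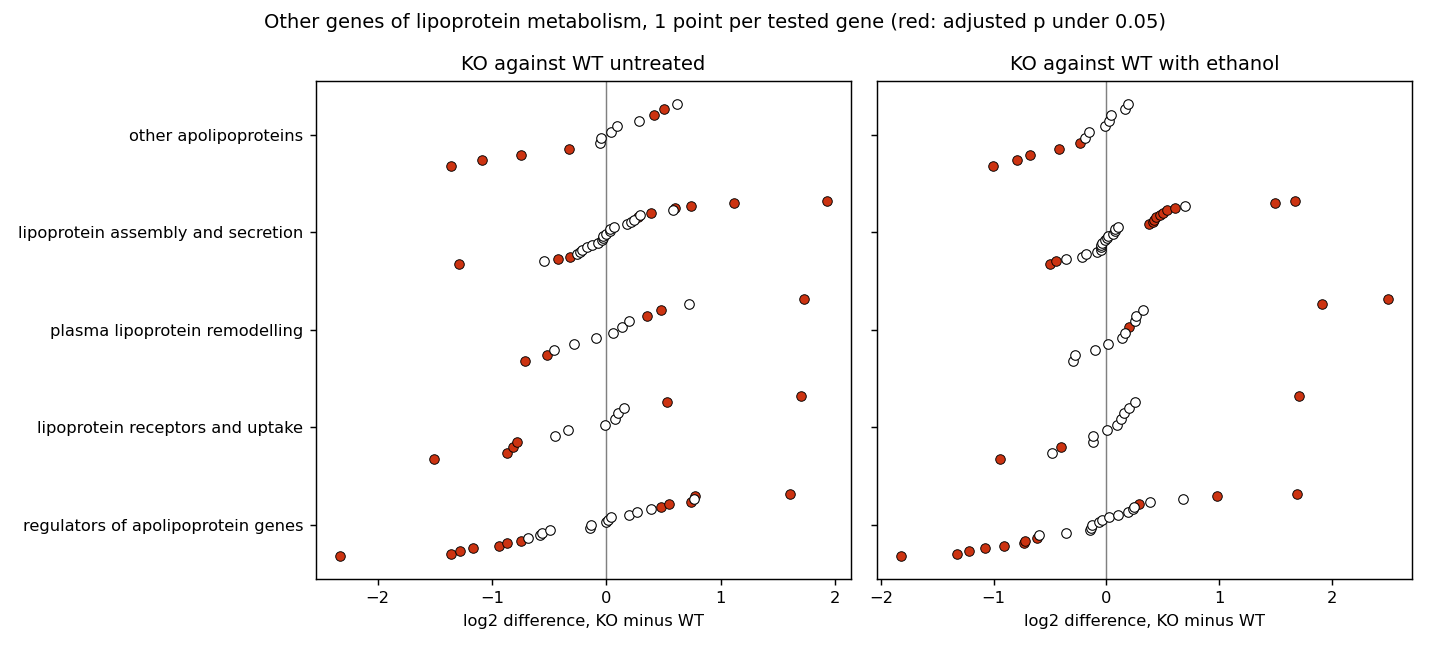
Log2 difference between KO and WT of each tested gene in the 5 lists, without ethanol (left) and with it (right), 1 point a gene, filled where the adjusted p is under 0.05. Each list holds genes on both sides of 0 without ethanol.

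Markers of other liver cells were measured beside these genes. Summed macrophage markers (16 of 17 measured) ran from 5300 to 5710 in untreated WT, 7256 to 7472 in ethanol WT, 6352 to 6401 in untreated KO and 8530 to 9133 in ethanol KO. Most of that sum was Cd14 (3830 to 6100) and Cd68 (411 to 1860), while Clec4f, specific to Kupffer cells, read 64.4 to 91.1, Vsig4 lay below the filter, and Cd163 was near 0 (1.46 to 7.76). Of 14 macrophage markers tested, 1 was called higher and 3 lower in untreated KO against WT (28.6% called, median -0.158). There Cd68 read 411 and 450 in WT against 1260 and 1240 in KO, and Marco 127 and 135 against 65.3 and 52.7. Stellate and fibroblast markers (12 of 12 measured, 7 below the filter) summed to 305.4 to 506.4 on WT and 526.3 to 799.9 on KO arrays. Dcn read 66.1 to 124 on WT and 234 to 347 on KO arrays, and Acta2 read 273 on ethanol KO A but 22.7 on ethanol KO B. In untreated cells Acta2 read 137 and 56.1 in WT against 22.3 and 53.2 in KO. Col1a1, below the filter, read 21.3 and 19.8 against 4.48 and 0.871. Of 5 markers tested, 1 was called in untreated KO against WT, higher, and the median difference was -0.367. Endothelial markers (11 of 11 measured) summed to 759.1 to 1015 over all arrays. Bile duct markers (6 of 8 measured, 3 below the filter, Krt19 and Krt7 among them) summed to 2783 to 2968 without and 1693 to 2141 with ethanol. Most of that sum was Cldn4 (1090 to 2470), while Sox9 read 232 to 323 on WT and 686 to 1050 on KO arrays. In untreated cells Cldn4 read 2320 and 2470 in WT against 1730 and 1940 in KO. Of 3 bile duct markers tested there, 1 was called higher and 1 lower in KO (median -0.385). The part of these cells in the differences above was not tested.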

How the data were processed

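Total RNA was labelled as biotin cRNA and hybridised to 8 one-colour Affymetrix arrays of 45101 probe sets, 64 of them controls. The deposited values are linear intensities, 1 per probe set and array; how the authors summarised and scaled them is not given here in any source used. Unusable values (5410 on ethanol WT B: 5403 exact zeros and 7 impossible as intensities) were treated as missing, and 39627 complete probe sets were quantile normalised and transformed as log2(intensity + 16), a scale that understates changes of dim genes. The 50% with the highest mean (at least 5.4), 19814 probe sets, were tested in limma 3.58.1 (R 4.3.3) with 4 group means over all 8 arrays and an intensity trend, on 4 residual and 5.43 prior degrees of freedom. P-values were adjusted by Benjamini-Hochberg over all tested probe sets and called under 0.05. With 2 arrays a group, the number of arrays limits the precision. The fit was tested on simulated data.

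Groups follow sample titles. The members and the gene lists were chosen with earlier results of these data known. Every member probe set is named; from each list, up to 4 called genes per comparison with the smallest adjusted p could be named, on the gene's brightest probe set; likeness names the 3 highest Pearson r for each gene with a call. Probe sets were named by the platform table, updated through RefSeq (34754 of 34958 single symbols matched). Promoters come from RefSeq on GRCm38.p6, with 8 of 10 genes found (Apoc1 and Apoc3 were not) and the first listed start of each gene. Alternatives were trimmed-mean scaling (2% left out at each end), offsets of 64 or 0, no filter or the top 30%, no trend, the compared groups alone, the replicate letter as a block, each array left out, the ethanol B arrays left out or counted as untreated, missing values kept, the spike-in class (ratio over or under 2) as a term, the dim arrays (trimmed mean under 150) left out, and 1 probe set a gene. Counts of the gene lists under trimmed-mean scaling and without the ethanol B arrays were chosen after seeing the data.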

Additional observations from a re-analysis of the deposited data

Results flagged for a closer look

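The ethanol response of Apoa5 differed between the genotypes, by the interaction term of the limma fit: the rise in KO cells exceeded that in WT cells by 0.867 ± 0.1 on the log2 scale (adjusted p = 0.0031), as 1.82 against 0.951. Normalised intensity was 540 and 568 without and 1920 and 2070 with ethanol in KO cells, and 2830 and 2860 without and 5560 and 5480 with it in WT cells. On the linear scale the gap between the media was wider in WT cells. Over its alternatives the adjusted p ran from 0.0016 to 0.85.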

How the results depend on the processing

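The genotype calls of Apoa5 (untreated), Apom (both probe sets, both media) and Mttp 1419400_at (untreated) held in every alternative run. Of 16 member probe sets called for ethanol in WT (1), the count was 0 with the ethanol B arrays counted as untreated and 2 with the spike-in class as a term. For ethanol in KO (5) it was 3 with trimmed-mean scaling, 1 without a trend, 3 with only the compared groups, 8 with the ethanol B arrays left out, 0 with them counted as untreated, 2 of 10 with 1 probe set a gene, and 1 to 8 leaving out each array. For KO against WT untreated (10) it was 5 of 10 with 1 probe set a gene. For KO against WT with ethanol (6) it was 2 with the ethanol B arrays counted as untreated, 10 without the dim arrays, and 6 to 10 leaving out each array. For the interaction (1) it was 0 without a trend, 5 with the ethanol B arrays left out, 0 with them counted as untreated, and 1 to 6 leaving out each array (6 without ethanol KO B and 2 without ethanol KO A). The cause was not tested, apart from fewer probe sets with 1 a gene. Calls over all tested probe sets moved too. For ethanol in KO (4394 of 19814) they were 4690 with trimmed-mean scaling, 2682 without a trend and 2441 with only the compared groups. With 1 probe set a gene they were 2953 of 8658 there, and 4038 of 8658 for KO against WT untreated. For ethanol in WT (1105) they were 1439 with the spike-in class as a term.

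Trimmed-mean scaling reversed the ethanol difference in KO of Apoa1 1438840_x_at (-0.178) and Apoc1 (-0.235). In both, the scaled value rose on ethanol KO A and fell on B. It also reversed the untreated KO against WT difference of the Apoa1 probe sets 1419232_a_at (0.369), 1419233_x_at (0.561), 1438840_x_at (0.336) and 1455201_x_at (0.519).

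Leaving out the dim arrays leaves no untreated KO array, so ethanol in KO, KO against WT untreated and the interaction could not be fitted that way. With 1 array left in a group, the lone array is assumed to vary like the other groups. Called probe sets over all tested ones ranged from 0 to 2088 for ethanol in WT (1105), 380 to 7479 for ethanol in KO (4394), 3972 to 8130 for KO against WT untreated (6394), 1367 to 7524 for KO against WT with ethanol (5770) and 0 to 4380 for the interaction (1061). The replicate block kept the member counts at 1, 5, 10, 6 and 1 and changed no member call. The letters were not taken to pair the arrays: correlations of A minus B were 0.2 to 0.3 among untreated WT, ethanol WT and ethanol KO, where the spike-in class follows the letter, and 0.02 to 0.03 with untreated KO.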
